A study of Mus musculus with 6 samples.

Results

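The FoxO transcription factors and the ubiquitin ligases of muscle atrophy were examined in RNA-seq libraries of WT and MSTN-KO C2C12 cells. The set was chosen by symbol and held 10 genes, namely *Foxo1*, *Foxo3*, *Foxo4*, *Fbxo32*, *Trim63*, *Fbxo30*, *Fbxo21*, *Mul1*, *Traf6* and *Klf15*. After matching through the GENCODE M21 annotation, 9 of the 10 were found among the 14548 genes with values, and *Klf15* was not analysed here. C2C12 is a mouse myoblast line, the proliferating precursor of skeletal muscle fibres, and was grown in medium with fetal bovine serum. There were 3 libraries of the WT genotype and 3 of the MSTN-KO genotype, in which exon 3 of the myostatin gene *Mstn* had been targeted with CRISPR/Cas9. All 3 MSTN-KO libraries come from 1 line, C11, and since C11 is also the strain label given for WT, groups were taken from the genotype. Nothing states that the replicates were separate cultures, so p-values measure only the spread between these libraries.

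FoxO factors are transcription factors that the insulin and IGF pathway keeps out of the nucleus, because AKT and SGK kinases phosphorylate them and the phosphorylated proteins are held in the cytoplasm. When that signal falls in skeletal muscle, FoxO factors enter the nucleus and switch on genes for protein breakdown. *Fbxo32* (atrogin-1, MAFbx) and *Trim63* (MuRF1) encode muscle ubiquitin ligases that mark proteins for the proteasome and are the classical indicator genes of atrophy. Myostatin, which limits muscle growth, is known to lower AKT signalling in muscle, so these genes lie on a known path downstream of it.

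The values are FPKM, fragments scaled to transcript length and library size, so that levels of different genes can be compared. Where 3 values follow each other they are those of replicates 1, 2 and 3. FPKM summed to 723705 to 764524 per WT library and to 856314 to 999579 per MSTN-KO library. Fragment numbers are not given, and the spacing of values below 0.1 FPKM puts the libraries near 15900000 to 20000000 fragments. *Mstn* itself was between 0 and 0.0586 FPKM in all 6 libraries and could not check the genotype labels. The limma test on log2(FPKM + 1) took the 10837 genes that reached 1 FPKM in any library, and a gene passed at a Benjamini-Hochberg adjusted p under 0.05. On this scale the change of a gene at a few FPKM is understated, and that of a gene near or under 1 FPKM most of all.

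Of the 9 genes, 0 passed this test, against 17.7% of all genes tested. All 3 FoxO factors had a higher mean in MSTN-KO and all 6 ligases a lower one, by 0.10 to 0.54 in size on the log2 scale. Of all 10837 genes tested, 5408 were higher in MSTN-KO, and the directions of *Foxo4* and *Fbxo32* turned in some alternatives. At an unadjusted p under 0.05 there were 2 genes, *Foxo1* (higher) and *Trim63* (lower), where 32.6% of all genes tested were under that value. By the criteria of the study, a fold change beyond 1 in either direction on the log2 scale together with an unadjusted p under 0.05, 0 of the 9 were DEGs, against 3.51% of all genes. These counts come from the fit used here and not from the study's own analysis, which reported more DEGs. In 2 of the 9 genes the groups did not overlap, as in 37.4% of all genes. The median log2 fold change was -0.14 over the 9 genes and -0.000781 over all genes. The adjusted p lay between 0.0838 and 0.651, and the intervals below show which sizes of change the 6 libraries leave possible.

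**Figure D1:**
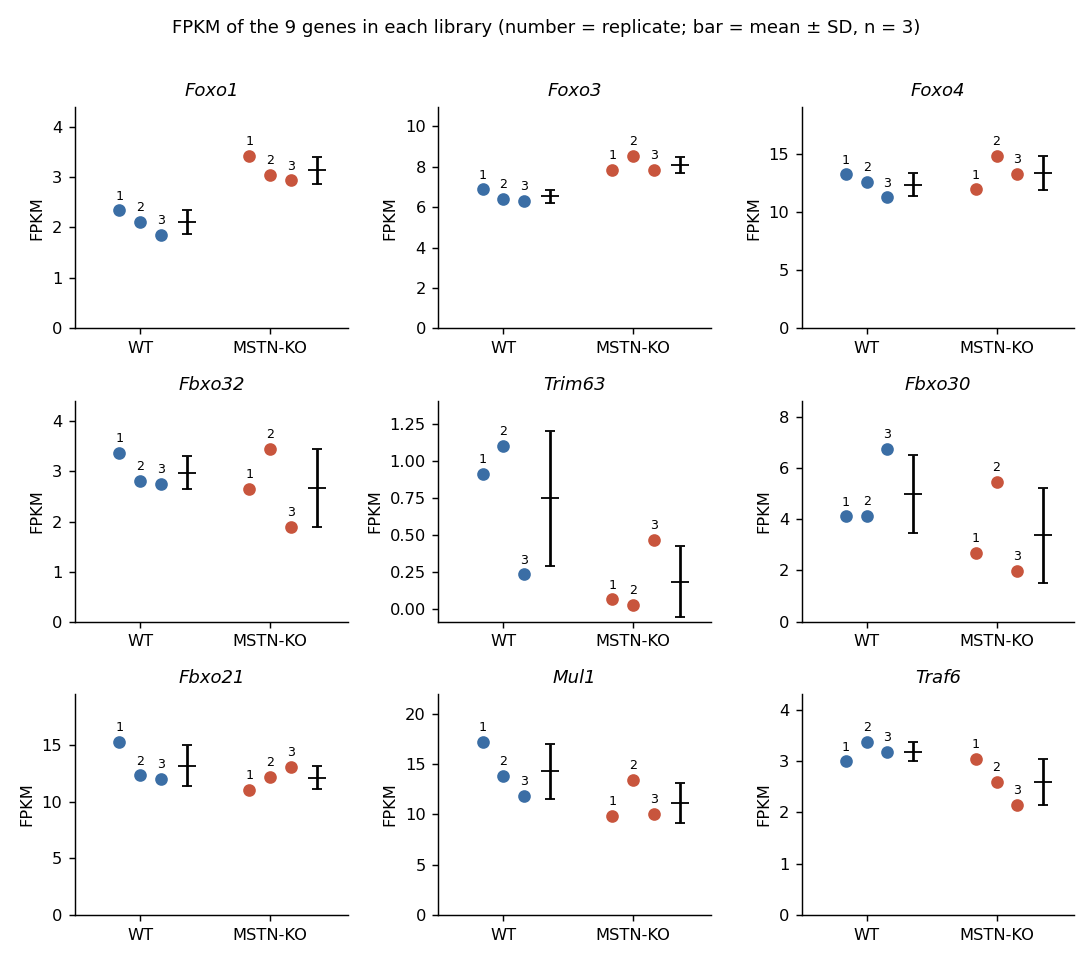
FPKM of the 9 genes (y axis of each panel) in the WT and MSTN-KO libraries. Points are libraries with their replicate number, and black bars are the mean ± SD of 3 libraries. The MSTN-KO points of *Foxo1* (2.93 to 3.42) and *Foxo3* (7.84 to 8.55) lie above all WT points, and the groups overlap in the other 7 panels.

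*Foxo1* (ENSMUSG00000044167, chromosome 3, 52268336 to 52353221 in GRCm38) encodes the FoxO factor best known for control of glucose metabolism and of atrophy genes in muscle. It read 2.34, 2.12 and 1.86 FPKM in WT, against 3.42, 3.03 and 2.93 FPKM in MSTN-KO. Every MSTN-KO library was above every WT library, which was the case for 19.3% of all genes tested. The mean was 2.10 ± 0.239 FPKM (SD, n = 3) in WT and 3.13 ± 0.259 FPKM in MSTN-KO, 1.49 times higher in MSTN-KO. The log2 fold change was 0.41 (95% interval 0.08 to 0.75, limma adjusted p = 0.0838). It did not pass the test, although it did after quantile normalization (0.56, limma adjusted p = 0.0223) and after a correction for gene length and GC content (0.45, limma adjusted p = 0.0255). It stayed above 0 in all 16 alternatives, from 0.22 to 0.56.

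*Foxo3* (ENSMUSG00000048756, chromosome 10, 42181841 to 42276755) encodes the factor that in adult muscle drives both *Fbxo32* and autophagy genes. It read 6.88, 6.42 and 6.31 FPKM in WT, against 7.85, 8.55 and 7.84 FPKM in MSTN-KO, again without overlap. The means were 6.53 ± 0.304 and 8.08 ± 0.409 FPKM, a log2 fold change of 0.27 (95% interval -0.03 to 0.57, limma adjusted p = 0.192). With each library scaled to a sum of 1000000 FPKM the difference nearly vanished, at 0.018, but that scaling moves the median of all genes to -0.26, relative to which *Foxo3* was still higher. For single values, 3 libraries against 3 cannot give less than 0.1 in a two-sided exact permutation test, and that was the p for *Foxo1* and for *Foxo3*.

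*Foxo4* (ENSMUSG00000042903, chromosome X, 101254528 to 101260873) encodes a smaller family member. Its level was 13.2, 12.6 and 11.3 FPKM in WT, against 12.0, 14.9 and 13.3 FPKM in MSTN-KO. The groups overlapped, and the log2 fold change was 0.10 (95% interval -0.20 to 0.40, limma adjusted p = 0.651). Per kilobase, *Foxo4* was the most abundant of these 3 factors in every library and *Foxo1* the least. *Foxo4* held 58.0% to 59.7% of their summed FPKM in the WT libraries and 51.5% to 56.2% in the MSTN-KO libraries. *Foxo1* held 9.57% to 10.4% in WT and 11.5% to 14.7% in MSTN-KO, so its share was higher in every MSTN-KO library. *Foxo6*, the remaining FoxO gene, was at 6.001 ± 1.10 FPKM in WT and 5.63 ± 0.146 FPKM in MSTN-KO (limma adjusted p = 0.797).

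*Fbxo32* (ENSMUSG00000022358, chromosome 15, 58175879 to 58214932) encodes the substrate-binding subunit of an SCF ubiquitin ligase, which has the MYOD1 protein among its known substrates. Its level was 3.37, 2.82 and 2.75 FPKM in WT, against 2.65, 3.45 and 1.90 FPKM in MSTN-KO. Both the highest and the lowest value were in MSTN-KO libraries. The means were 2.98 ± 0.339 and 2.67 ± 0.778 FPKM, a log2 fold change of -0.14 (95% interval -0.53 to 0.26, limma adjusted p = 0.6396). The direction turned after quantile normalization (0.019) and without MSTN-KO replicate 3 (0.022), so these data give no direction for *Fbxo32*. An antisense gene overlaps the exons of *Fbxo32* and another those of *Foxo1*, and whether the counting used strand is not given in the sources used here.

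*Trim63* (ENSMUSG00000028834, chromosome 4, 134315120 to 134329629) encodes a RING-finger ligase of the sarcomere, which targets myosin and other thick filament proteins. It had the lowest level of the 9 genes in every library. Its values were 0.912, 1.10 and 0.234 FPKM in WT, against 0.0661, 0.0272 and 0.465 FPKM in MSTN-KO. WT replicate 3 was below MSTN-KO replicate 3, so the groups overlapped. By the step size of each library these values correspond to about 31, 42 and 8 fragments in WT and 2, 1 and 16 in MSTN-KO. At these numbers counting error is a large part of each value. The mean was 0.749 ± 0.456 FPKM in WT and 0.186 ± 0.243 FPKM in MSTN-KO, and the log2 fold change was -0.54 (95% interval -1.04 to -0.05, limma adjusted p = 0.1198). With a pseudocount of 0.1 in place of 1 it was -1.70 (limma adjusted p = 0.101), and that setting alone made *Trim63* a downregulated DEG by the criteria of the study. Without WT replicate 3 the test was passed (-0.78, limma adjusted p = 0.0338). The gene entered the test only through WT replicate 2, and without that library it was not tested.

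The order of the libraries for *Trim63* was read beside a list of 25 muscle differentiation genes, such as myogenin and the myosin light chains. All 21 tested genes of this list fell in MSTN-KO (median log2 fold change -2.53), where 8.96% of all genes fell (971 genes against 952 that rose, or 2367 against 350 with each library at a sum of 1000000 FPKM). The list had been chosen with its fall already known. Relative to the WT mean, its median was 0.33, 0.51 and -1.10 in WT replicates 1, 2 and 3 and -2.65, -2.54 and -2.10 in the MSTN-KO replicates. *Trim63* deviated by 0.17, 0.30 and -0.47 in WT and by -0.68, -0.73 and -0.22 in MSTN-KO. WT replicate 3 was the lowest WT library and MSTN-KO replicate 3 the highest MSTN-KO library on both measures, and the part of differentiation in the *Trim63* values was not tested. In *Fbxo32*, by contrast, MSTN-KO replicate 3 was the lowest of the 6 libraries.

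**Figure D2:**
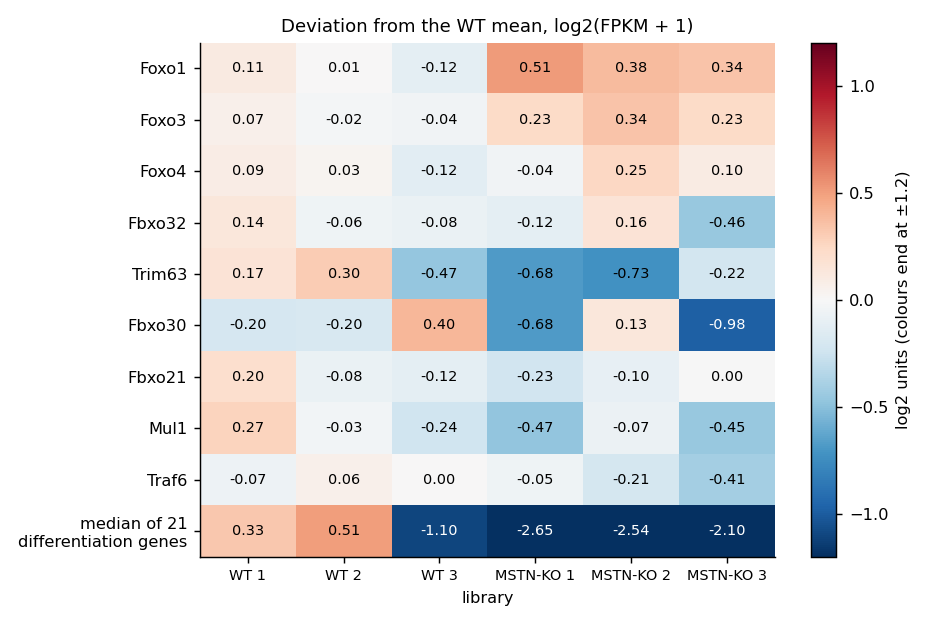
Deviation of each library (columns) from the WT mean in log2(FPKM + 1) units, for the 9 genes and for the median of 21 muscle differentiation genes (rows). Colours end at ±1.2. *Trim63* is low in WT replicate 3 (-0.47) as the differentiation genes are (-1.10), and *Fbxo30* is high in that library (0.40).

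The start of *Trim63* is shown because it was the only member promoter with a match to the FoxO core motif GTAAACA or to the E-box CAGCTG, a sequence bound by MYOD1 and myogenin. RefSeq promoters (GRCm38.p6) were found for 7 of the 9 genes and not for *Foxo4* and *Fbxo32*, and the 250 bases before each start were searched on both strands. The stretch is chr4:134314870-134315119 on the plus strand, with both matches in capitals. The FoxO core lies 194 to 188 bases before the start and reads on the minus strand, and the E-box lies 72 to 67 bases before it.
*Trim63* promoter: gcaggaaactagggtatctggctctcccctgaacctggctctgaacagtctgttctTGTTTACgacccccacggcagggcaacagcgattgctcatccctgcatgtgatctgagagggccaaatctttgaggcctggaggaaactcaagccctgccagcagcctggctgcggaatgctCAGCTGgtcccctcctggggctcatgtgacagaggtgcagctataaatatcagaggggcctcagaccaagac
Of 8455 promoters of tested genes, 2.07% held GTAAACA and 11.5% held CAGCTG. Of the 7 member promoters 1 held each motif, and 4 held the general E-box CANNTG, as did 55.2% of the promoters of tested genes. The matches describe these letters only, and binding was not measured.

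*Fbxo30* (ENSMUSG00000047648, chromosome 10, 11281330 to 11298052) encodes MUSA1, an F-box ligase of muscle that BMP signalling through SMAD4 keeps low. It read 4.11, 4.14 and 6.75 FPKM in WT, against 2.67, 5.46 and 1.98 FPKM in MSTN-KO. MSTN-KO replicate 2 was above WT replicates 1 and 2, and WT replicate 3 was above all other libraries. The means were 5.0 ± 1.52 and 3.37 ± 1.84 FPKM, with a log2 fold change of -0.51 (95% interval -1.07 to 0.05, limma adjusted p = 0.190). Its standard error, 0.26, was larger than that of 97.8% of all genes tested. Without MSTN-KO replicate 2 the test was passed (-0.83, limma adjusted p = 0.0124), and without MSTN-KO replicate 3 the fold change was -0.27. Correction for gene length and GC content brought it to -0.31 (limma adjusted p = 0.276).

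*Fbxo21* (ENSMUSG00000032898, chromosome 5, 117976730 to 118010201) encodes SMART, an F-box ligase that FoxO factors induce in denervated muscle. Its values were 15.3, 12.3 and 12.0 FPKM in WT, against 11.1, 12.2 and 13.1 FPKM in MSTN-KO. WT replicate 1 was the highest and MSTN-KO replicate 1 the lowest of the 6, the groups overlapped, and the log2 fold change was -0.11 (95% interval -0.42 to 0.20, limma adjusted p = 0.638). A change of 1 in log2(FPKM + 1) lies outside this interval, as it does for the 3 FoxO factors, *Fbxo32*, *Mul1* and *Traf6*. A doubling of FPKM is less than 1 on this scale, most clearly for genes at a few FPKM. For *Foxo1*, with an interval up to 0.75, a doubling of FPKM is therefore not excluded. For *Trim63* and *Fbxo30* the intervals reach below -1.

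*Mul1* (ENSMUSG00000041241, chromosome 4, 138434671 to 138442265) encodes a ligase of the outer mitochondrial membrane that targets mitofusin 2. It read 17.2, 13.8 and 11.8 FPKM in WT, against 9.86, 13.4 and 10.02 FPKM in MSTN-KO. MSTN-KO replicate 2 was above WT replicate 3. The means were 14.3 ± 2.71 and 11.1 ± 1.99 FPKM, a log2 fold change of -0.33 (95% interval -0.70 to 0.03, limma adjusted p = 0.186). Only scaling to a sum of 1000000 made it pass (-0.60, limma adjusted p = 0.0477), and relative to the median of all genes under that scaling, -0.26, it was lower by about as much as before. Its substrate gene *Mfn2* was at 26.0 ± 2.69 FPKM in WT and 23.7 ± 1.98 FPKM in MSTN-KO (limma adjusted p = 0.535). Of other genes on the list of ligase substrates described below, *Mfn1* was at 9.45 ± 0.790 and 9.74 ± 1.58 FPKM (limma adjusted p = 0.906). *Dnm1l* fell from 9.66 ± 0.391 to 4.36 ± 1.58 FPKM (-1.04, limma adjusted p = 0.00363).

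*Traf6* (ENSMUSG00000027164, chromosome 2, 101678429 to 101701669) encodes a ligase that joins ubiquitin chains in signalling from interleukin-1 and Toll-like receptors and is needed for full atrophy in muscle. It read 2.99, 3.37 and 3.18 FPKM in WT, against 3.04, 2.60 and 2.15 FPKM in MSTN-KO. MSTN-KO replicate 1 lay inside the WT range, and the other two MSTN-KO libraries lay below it. The log2 fold change was -0.22 (95% interval -0.57 to 0.12, limma adjusted p = 0.353).

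**Figure D3:**
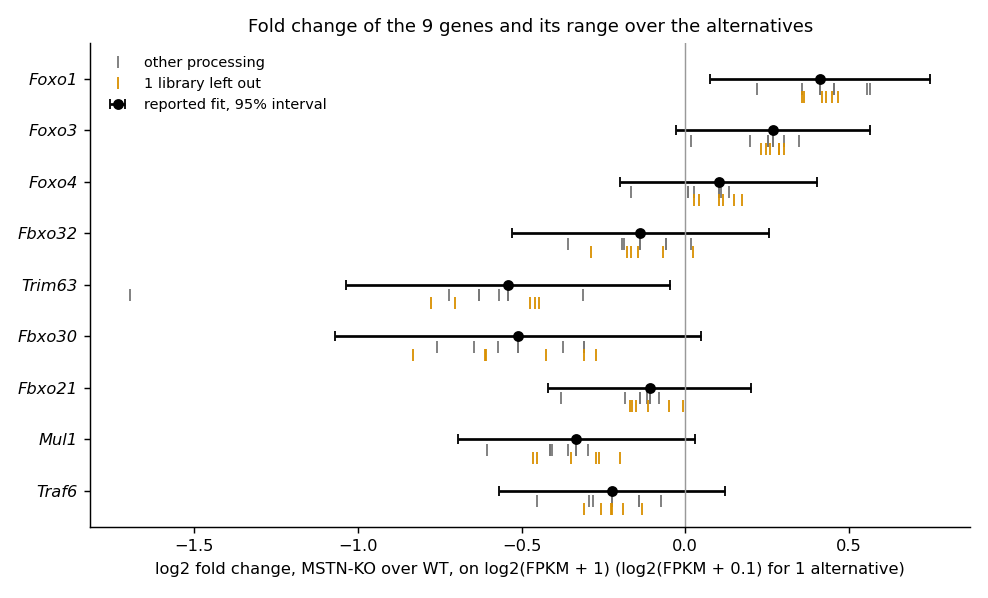
Log2 fold change of MSTN-KO over WT (x axis) for the 9 genes (y axis). Black points are the reported values with their 95% intervals, grey ticks the other ways of processing and orange ticks the fits with 1 library left out. The ticks of *Fbxo32* and *Foxo4* cross 0, and the grey tick of *Trim63* at -1.70 is the pseudocount of 0.1.

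In the order of their levels, *Mul1*, *Fbxo21* and *Foxo4* stood near the middle of all genes tested, with WT means of 12.4 to 14.3 FPKM (percentiles 51.1 to 54.5). Their WT ranges overlapped, so their order was within the spread. *Foxo3* (6.53 FPKM) and *Fbxo30* (5.0 FPKM) followed, with overlapping ranges in WT. *Traf6*, *Fbxo32* and *Foxo1* came next at 3.18, 2.98 and 2.10 FPKM, and *Trim63* was last at percentile 2.07. In the WT libraries the range of *Foxo1* lay below those of *Traf6* and *Fbxo32*. In the MSTN-KO libraries it overlapped both. *Fbxo32* was 2.56 to 11.8 times the level of *Trim63* in WT and 4.07 to 126.9 times in MSTN-KO, ratios set by the few *Trim63* fragments.

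The patterns most like those of 3 of the genes were sought as the smallest root mean square difference over the 6 libraries, in log2(FPKM + 1) after subtracting each gene's own mean. The 3 genes were chosen after their values were seen. The root mean square deviation from their own mean was 0.22 for *Foxo1*, 0.39 for *Trim63* and 0.46 for *Fbxo30*. *Fat1*, a cadherin-family gene, was among the 3 genes nearest to *Foxo1*, at 22.6, 21.02 and 20.4 FPKM in WT and 32.3, 27.8 and 28.8 FPKM in MSTN-KO (difference 0.04). Nearest to *Trim63* was *Myl6b*, a myosin light chain gene, at 33.4, 32.5 and 21.3 FPKM in WT and 18.2, 19.5 and 24.4 FPKM in MSTN-KO (difference 0.10). Next came *Cacng1*, a subunit of the muscle calcium channel, and *Iffo1*, each at a difference of 0.13. Nearest to *Fbxo30* was *Prkg2*, at a difference of 0.08, and *Hells* was among the 3 nearest, at 0.09. *Hells*, a chromatin remodeller of dividing cells, was at 3.00, 2.90 and 4.65 FPKM in WT and 1.83, 4.28 and 1.63 FPKM in MSTN-KO, with the same high libraries as *Fbxo30*.

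Upstream of the FoxO proteins, *Sgk1* rose while *Akt1* and *Akt2* stayed within their spread. *Sgk1*, a kinase that phosphorylates FoxO factors, read 73.3, 72.7 and 64.5 FPKM in WT, against 154, 117 and 127 FPKM in MSTN-KO. On the log2 scale the rise was 0.90 ± 0.13 (SE; limma adjusted p = 0.000610), and it passed with each library left out. *Akt1* was at 194 ± 20.04 and 190 ± 18.3 FPKM (limma adjusted p = 0.882) and *Akt2* at 62.0 ± 12.6 and 61.1 ± 4.38 FPKM (limma adjusted p = 0.992). Of 31 tested regulators of FoxO, 1 rose and 2 fell (9.68% in all), where 8.78% of all genes rose and 8.96% fell, and their median was -0.11. Those that fell were *Mapk8*, the stress kinase JNK1 (-0.82, limma adjusted p = 0.0440), and *Kat2b*, an acetyltransferase (-0.60, limma adjusted p = 0.0394). *Mapk8* lost its call without any one of the WT replicates or MSTN-KO replicate 3 (-0.87 to -0.43), and *Kat2b* without any library but MSTN-KO replicate 2 (-0.64 to -0.46). *Mapk8* also lost it with a pseudocount of 0.1, no filter, no trend, quantile normalization and scaling by percentile 75 (0.0535 to 0.142), and *Kat2b* with no filter (0.101) and quantile normalization (0.0763). *Akt1* passed as lower with a sum of 1000000 FPKM (-0.32, limma adjusted p = 0.0320), where the median of all genes was -0.26. The number that fell was 5 without MSTN-KO replicate 2, 1 without MSTN-KO replicate 1 and 0 without any other library, and the split was 1 higher and 7 lower with a sum of 1000000 FPKM. *Ppargc1a*, a coactivator that opposes FoxO3, was under 0.1 FPKM in every library.

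The known target genes of FoxO went both ways. Of 42 tested, 8 rose and 6 fell (33.3% in all, beside 17.7% of all genes), with a median of -0.06. *Lpl*, the lipoprotein lipase, rose from 2.18 ± 0.3597 to 19.3 ± 6.87 FPKM (log2 fold change 2.61, limma adjusted p = 6.89e-06). *Irs2*, the insulin receptor substrate that FoxO factors induce as feedback, rose from 1.74 ± 0.229 to 3.34 ± 0.529 FPKM (0.66, limma adjusted p = 0.0154), and *Sesn1*, a sestrin that limits mTORC1, from 7.44 ± 0.620 to 12.6 ± 2.76 FPKM (0.67, limma adjusted p = 0.0163). The peroxiredoxin gene *Prdx5* rose by 0.63. *Txnip*, the thioredoxin inhibitor, fell from 11.6 ± 1.67 to 4.91 ± 1.09 FPKM (-1.10, limma adjusted p = 0.000875) and *Cdkn1a*, the cell cycle inhibitor p21, from 235 ± 41.9 to 137 ± 15.6 FPKM (-0.77, limma adjusted p = 0.00364). *Erbb3* (-0.95) and *Fst*, the myostatin antagonist follistatin (-0.80), also fell. *Lpl*, *Prdx5*, *Txnip* and *Cdkn1a* kept their calls with each library left out, while *Irs2* lost it without WT replicate 2 (limma adjusted p = 0.0832) or MSTN-KO replicate 1 (0.0766), and *Sesn1* without WT replicate 3 (0.0510) or MSTN-KO replicate 1 (0.0717). *Erbb3* lost it without WT replicate 1 (0.0742) or MSTN-KO replicate 3 (0.0658), and *Fst* without WT replicate 1 (0.0539) or 2 (0.0670). With a sum of 1000000 FPKM *Irs2* (0.0731) and *Sesn1* (0.159) lost their calls, and with no filter *Sesn1* (0.0554) and *Erbb3* (0.0600). The number that rose was 4 without WT replicate 2, WT replicate 3 or MSTN-KO replicate 1, and with a sum of 1000000 FPKM the split was 2 higher and 12 lower.

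Of the 4 other *Trim* genes in the list of muscle ligases and ubiquitin genes, 3 fell, and *Trim32* was at 15.6 FPKM in WT and 15.5 FPKM in MSTN-KO (limma adjusted p = 0.986). *Trim54* (MuRF3), a sarcomeric partner of MuRF1, read 11.2, 11.2 and 6.80 FPKM in WT, against 3.11, 3.17 and 4.13 FPKM in MSTN-KO (log2 fold change -1.24, limma adjusted p = 0.000818). *Trim72*, the membrane repair protein MG53, read 5.84, 5.71 and 2.01 FPKM in WT, against 0.168, 0.275 and 0.0751 FPKM in MSTN-KO (-2.14, limma adjusted p = 0.000154). WT replicate 3 was again the lowest WT library for both. *Trim55* (MuRF2) fell by 0.54 on the log2 scale (limma adjusted p = 0.0311), a call lost when WT replicate 1 or 2 or MSTN-KO replicate 1 or 3 was left out (0.0794 to 0.152), and *Asb5* fell by 0.54, lost without WT replicate 3 (0.0549) or MSTN-KO replicate 3 (0.0519). *Stub1*, the ligase CHIP, rose by 0.44 and lost its call without WT replicate 2 or 3 or MSTN-KO replicate 1 or 3 (0.0938 to 0.127). *Ubb* was at 620 ± 29.96 and 626 ± 33.7 FPKM (limma adjusted p = 0.947). In all, 2 of 41 tested genes rose and 4 fell (14.6%, beside 17.7% of all genes), with a median of -0.11. With no filter on low values *Trim55* lost its call (0.0707), and *Stub1* lost it with no trend (0.0560), quantile normalization (0.0537) and a sum of 1000000 FPKM (0.240). Without MSTN-KO replicate 2 the number that fell was 7, and without MSTN-KO replicate 3 it was 2, and with a sum of 1000000 FPKM 0 rose and 11 fell.

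Most genes for the proteins these ligases are reported to act on fell. Of 18 tested, 12 fell and 2 rose (77.8%, beside 17.7% of all genes), and the median was -0.997. Of these 18 genes 6 also stand among the 21 of the differentiation list. Another 2, *Myod1* and *Des*, stand among the 10 tested myoblast genes described below, and both fell. Those that fell were led by the sarcomere genes *Mylpf* (-4.02), *Myl1* (-3.63) and *Myh3* (-2.77) and the muscle creatine kinase *Ckm* (-2.61). *Myod1*, whose protein is a substrate of atrogin-1, fell from 145 ± 21 to 96.1 ± 6.69 FPKM (-0.58, limma adjusted p = 0.00986). *Eif3f*, a translation initiation factor and another substrate of atrogin-1, rose from 119 ± 13.0 to 191 ± 17.2 FPKM (0.68, limma adjusted p = 0.00341), and the phosphatase gene *Dusp1* rose by 0.54, a call lost with a sum of 1000000 FPKM (0.0959). The number that fell was 12 with each library left out.

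**Figure D4:**
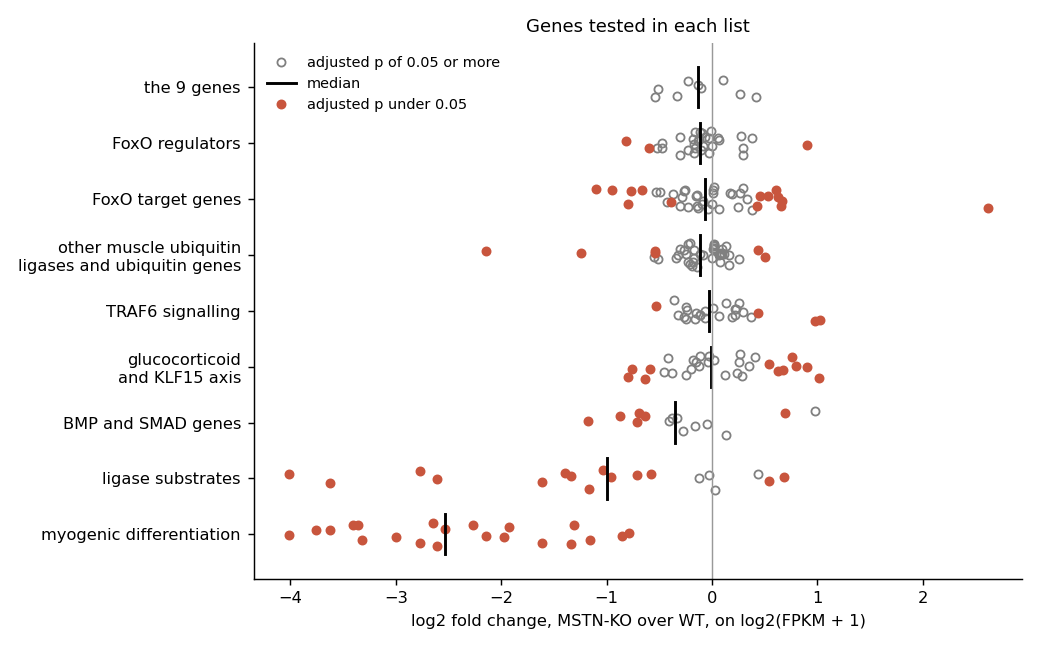
Log2 fold change of MSTN-KO over WT (x axis) for each tested gene of 9 lists (y axis, spread at random within a row). Filled points have an adjusted p under 0.05, open points do not, and the black line is the median. The 9 genes lie between -0.54 and 0.41, while the medians of the substrate and differentiation lists are -0.997 and -2.53.

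Of the genes around TRAF6, 3 of 26 rose and 1 fell (15.4%, beside 17.7% of all genes), with a median of -0.03. *Traf1* rose from 2.73 ± 0.371 to 6.65 ± 1.47 FPKM (1.02, limma adjusted p = 0.00155) and kept its call with each library left out. *Traf5* read 8.18, 5.41 and 6.31 FPKM in WT, against 18.8, 8.41 and 16.7 FPKM in MSTN-KO (0.98, limma adjusted p = 0.0147), a call lost without MSTN-KO replicate 3 (0.0843). *Traf4* fell from 80.2 ± 10.3 to 54.8 ± 4.03 FPKM (-0.54, limma adjusted p = 0.0141), lost without MSTN-KO replicate 1 (0.0721). *Tradd*, an adaptor of the TNF receptor, rose by 0.43 (limma adjusted p = 0.0432), a call lost without WT replicate 2 or 3 or MSTN-KO replicate 1 or 3 (0.0676 to 0.175). *Tradd* also lost it with no filter, no trend, scaling by percentile 75 and a sum of 1000000 FPKM (0.0567 to 0.290), and *Traf5* with no filter (0.0743) and that sum (0.0604). The number that rose was 1 without MSTN-KO replicate 3, and the number that fell 0 without MSTN-KO replicate 1 and 2 without MSTN-KO replicate 2. With a sum of 1000000 FPKM the split was 1 higher and 3 lower.

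Glucocorticoids induce *Fbxo32*, *Trim63* and *Klf15* in muscle, and the genes of that axis moved in both directions. The receptor gene *Nr3c1* was at 2.72 ± 0.798 and 3.42 ± 1.04 FPKM (limma adjusted p = 0.454). Of the genes the receptor induces, *Fkbp5* (10.4 ± 0.779 and 10.2 ± 1.31 FPKM, limma adjusted p = 0.913) and *Tsc22d3* (25.1 ± 1.62 and 21.8 ± 2.30 FPKM, limma adjusted p = 0.313) did not pass, while other genes of this axis rose. Of 30 tested genes, 7 rose and 4 fell (36.7% in all, beside 17.7% of all genes), with a median of -0.01. Besides *Sgk1*, those that rose most were *Cebpb* (1.01), *Hsd11b1*, the enzyme that activates glucocorticoids (0.80), and *Ddit4*, an mTORC1 inhibitor (0.76, limma adjusted p = 0.00163). *Mt2* (0.67), *Mt1* (0.63) and *Dusp1* (0.54) also rose. *Hsd11b1* was low, at 0.139 ± 0.0954 FPKM in WT and 0.993 ± 0.352 FPKM in MSTN-KO, and lost its call without MSTN-KO replicate 1 (0.0534). It entered the test only through MSTN-KO replicates 1 and 3, and with a filter on a mean of 1 FPKM it was not tested. *Cebpb* overlapped between the groups and lost its call without WT replicate 2 (0.0515) or 3 (0.0751) or MSTN-KO replicate 3 (0.133). The relatives of *Klf15* that fell were *Klf6* (-0.79), *Klf5* (-0.64) and *Klf10* (-0.59), beside the proline dehydrogenase gene *Prodh* (-0.76). *Klf10* lost its call without WT replicate 2 (0.0598) or 3 (0.0610), and *Prodh* without WT replicate 1 (0.0514). *Cebpb* also lost it with no filter (0.103) and a sum of 1000000 FPKM (0.0803), and with that sum *Tsc22d3* passed as lower (-0.48, limma adjusted p = 0.0175). The number that rose was 4 without MSTN-KO replicate 1 or 3, and with a sum of 1000000 FPKM 3 rose and 8 fell.

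The list of BMP and SMAD genes read beside *Fbxo30* had a lower mean in 11 of 14 cases. It mixes receptors and SMAD genes with inhibitors and the *Id* genes, so this count gives no direction for BMP signalling. Of the 14, 5 fell and 1 rose (42.9%, beside 17.7% of all genes), with a median of -0.36. *Nog*, the secreted BMP inhibitor noggin, fell from 2.91 ± 0.418 to 0.736 ± 0.295 FPKM (-1.18, limma adjusted p = 0.000818), and *Smad5* from 14.3 ± 0.488 to 8.55 ± 1.42 FPKM (-0.69, limma adjusted p = 0.00674). The BMP receptors *Bmpr1a* (-0.88, limma adjusted p = 0.0216) and *Bmpr2* (-0.71, limma adjusted p = 0.0313) also fell, as did *Id2* (-0.63, limma adjusted p = 0.00663). *Bmpr1a* lost its call without WT replicate 1 (0.105) or MSTN-KO replicate 3 (0.0850), and *Bmpr2* without any library but MSTN-KO replicate 2 (0.0607 to 0.118). With no filter both receptors lost their calls (0.0915 for *Bmpr1a* and 0.0791 for *Bmpr2*), and *Bmpr2* also under the length and GC correction (0.0533) and quantile normalization (0.0590). The gene that rose, *Tfap4* (0.69, limma adjusted p = 0.00513), is a transcription factor and no part of the BMP pathway. The number that fell was 3 without WT replicate 1 or MSTN-KO replicate 3, and the number that rose was 2 without MSTN-KO replicate 2.

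Markers were checked for the identity of the cells. Of the myoblast genes, *Myod1*, *Des* and *Itga7* were above 90 FPKM in all 6 libraries, while *Myf5* was at 9.49 to 14.7 FPKM and *Pax3* at most 0.0293 FPKM. Of 10 tested genes *Myod1*, *Des*, *Itga7*, *Ncam1* and *Cxcr4* fell. With *Pax7*, which rose, 60% of the 10 passed, beside 17.7% of all genes. *Itga7* was named after its values were seen, and 4 to 5 of the genes fell with each library left out. *Pax7*, a marker of muscle stem cells, rose from 1.02 ± 0.260 to 2.19 ± 0.770 FPKM (limma adjusted p = 0.0415), a call lost without any library but MSTN-KO replicate 3 (0.0585 to 0.130) and with no filter, scaling by percentile 75, a sum of 1000000 FPKM or the length and GC correction (0.0549 to 0.132). The fibroblast genes found in the data summed to 185 to 258 FPKM in WT and 322 to 387 FPKM in MSTN-KO, nearly all of it *Col3a1*. Of 4 tested, *Col3a1* rose, and *Dcn* and *Postn* fell (75%, beside 17.7% of all genes). *Col3a1* lost its call with quantile normalization (0.0608) and a sum of 1000000 FPKM (0.102), and *Dcn* with a pseudocount of 0.1, no filter, quantile normalization, scaling by percentile 75 or the length and GC correction (0.0554 to 0.147). *Dcn* lost its call without WT replicate 1 (0.1598) or 2 (0.153) or MSTN-KO replicate 3 (0.168), and *Postn* without WT replicate 3 (0.0508) or MSTN-KO replicate 3 (0.0574). Adipocyte genes summed to 5.69 to 6.48 FPKM in WT and 6.74 to 9.94 FPKM in MSTN-KO, where *Fabp4* rose, and *Plin1* was at 0 in 5 libraries. *Fabp4* entered the test only through MSTN-KO replicates 1 and 3, and with a filter on a mean of 1 FPKM it was not tested. Macrophage genes summed to at most 2.45 FPKM, endothelial genes to at most 0.167 FPKM, and osteoblast genes to 8.16 to 12.2 FPKM, most of it *Runx2*. The part of other cell states in the values of the 9 genes was not tested.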

How the data were processed

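C2C12 RNA-seq libraries, 3 WT and 3 MSTN-KO, were used. The authors computed and deposited FPKM values, 1 library per file, unpooled. The submitters' processing notes name Bowtie 0.12.2 and mm8, and the counter, annotation and gene filter are not given in the sources used here. The files hold no coordinates, so the positions printed are those of GENCODE M21 (GRCm38), matched by gene identifier (14454 of 14548 genes). FPKM depend on the makeup of the whole library, so a few abundant genes lower the values of all others.

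With limma 3.58.1 (R 4.3.3), log2(FPKM + 1) of the 10837 genes that reached 1 FPKM in any library was modelled by group, with trended eBayes and Benjamini-Hochberg adjustment over all of them. The fit was tested on simulated data. Approximate fragments are FPKM times the longest transcript divided by the median of that product in 1 step of genes under 0.1 FPKM (30 to 78), a rough scale with no interval. Alternatives were pseudocount, filter, trend, scaling, a length and GC correction (mgcv 1.9.3), the replicate block and leaving out each library. The genes named are the 9 members, up to 4 rises and 4 falls per list among genes that passed, fixed regulators, and some others added after their values were seen. The members and lists were chosen with earlier results of these data known, and the likeness rule, meant for members that passed, was applied to 3 that did not. Python 3.11.15 was used for tables and matplotlib 3.10.9 for figures. Protein features were not analysed here. Some results of the named genes are not reported here.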

Additional observations from a re-analysis of the deposited data

How the results depend on the processing

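Among the 9 genes, 134 of the 142 refits kept direction and side of the threshold. The number that rose went from 0 to 1 (*Foxo1*) under quantile normalization and under a correction for length and GC content. The number that fell went from 0 to 1 with a sum of 1000000 FPKM (*Mul1*), and lay between 0 and 1 with each library left out. By the criteria of the study it was 1 with a pseudocount of 0.1 (*Trim63*). The direction turned for *Foxo4* with a sum of 1000000 FPKM (-0.17) and for *Fbxo32* after quantile normalization (0.019) and without MSTN-KO replicate 3 (-0.29 to 0.022 over the libraries left out). It also turned for *Akt1* (0.049 without WT replicate 1 and 0.015 without MSTN-KO replicate 2, lowest -0.11), *Akt2* (0.14 and 0.048 without the same libraries) and *Fkbp5* (0.013 after quantile normalization, 0.024 without WT replicate 1 and 0.039 without MSTN-KO replicate 1, lowest -0.12). The cause was not tested. Over all genes, 952 rose and 971 fell, against 350 and 2367 with a sum of 1000000 FPKM, which moves the median of all genes by -0.26. By the criteria of the study DEGs numbered 131 up and 249 down, against 254 up and 500 down with a pseudocount of 0.1, and 92 up and 510 down with that sum. The study's own analysis, run with the iDEP software, reported more DEGs than the fit used here, and more up than down. With each library left out 423 to 1184 genes rose and 606 to 1251 fell, the fewest without WT replicate 2. Same-numbered libraries did not deviate together (r = -0.0153, -0.128 and -0.142 across genes). The fit with the replicate block called 939 genes higher and 1001 lower and 0 of the 9 genes in either direction, and among the named genes it ended the call of *Tradd* (limma adjusted p = 0.0570). With the length and GC correction added to the block, *Tradd* (0.0763), *Mapk8* (0.0529), *Fst* (0.0558), *Bmpr2* (0.0940), *Pax7* (0.0661) and *Dcn* (0.0681) lost theirs. *Trim63* could not be tested with a filter on a mean of 1 FPKM or without WT replicate 2. Of 51 other genes that passed and are named by the rule, 29 passed with each library left out.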

Other observations

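The families to which the ligases belong were read by symbol, a step added after the values had been seen. Of 51 tested F-box genes, 3 rose and 6 fell (17.6% in all), and of 31 tested *Trim* genes 0 rose and 8 fell (25.8%), beside 17.7% of all genes. Of 15 tested forkhead genes *Foxf2* (1.86 ± 0.412 and 3.68 ± 0.2997 FPKM in WT and MSTN-KO, limma adjusted p = 0.00979) and *Foxc1* (2.37 ± 0.0462 and 3.69 ± 0.389 FPKM, limma adjusted p = 0.0466) rose and 0 fell.

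The fall of *Trim44*, which encodes a TRIM protein without a RING domain, was larger than that of *Trim72*. It read 6.60, 5.84 and 6.20 FPKM in WT, against 0.0819, 0.0546 and 0.0651 FPKM in MSTN-KO (log2 fold change -2.76, limma adjusted p = 1.25e-07). *Trim44* lies on chromosome 2 of GRCm38 from 102300119 to 102407828, 598 kb past the end of *Traf6*. Between them *Ldlrad3* was at 16.1 ± 0.216 FPKM in WT and 17.2 ± 1.72 FPKM in MSTN-KO (limma adjusted p = 0.696), and *Commd9* at 36.6 ± 2.38 and 45.4 ± 7.28 FPKM (limma adjusted p = 0.167). *Prr5l*, beside *Traf6*, was at 0.590, 4.46 and 1.57 FPKM in WT and 0.208, 0.658 and 0.492 FPKM in MSTN-KO (limma adjusted p = 0.0646). The cause of the *Trim44* values was not tested.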
